A study of Mus musculus with 12 samples.

Results

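The genes described here are 42 genes of DNA replication and S phase, listed by name from textbook roles, with earlier results of these data known. All 42 were found in the count table of 55421 genes, all 42 had at least 10 counts in 12 of 12 libraries, and all 42 were among the 18842 genes tested. Gene-level RNA counts were measured in sorted microglia, the resident macrophages of the brain, from mouse brains. Every sample went through 6 h of oxygen-glucose deprivation (OGD), which removes oxygen and glucose as a culture model of ischaemia. There were 4 groups of 3 libraries. KO-recovery and KO-OGD came from Slc2a5-/-::Cx3cr1EGFP mice, which lack the gene of the fructose transporter GLUT5, and WT-recovery and WT-OGD came from Cx3cr1EGFP mice. All groups thus carried the Cx3cr1EGFP reporter, which marks microglia and related macrophages, and no group without OGD was analysed here. The OGD groups were taken at the end of OGD, and the recovery groups had a further 24 h of recovery. All samples were labelled male, at postnatal days 35 to 40, while the extraction protocol gave days 30 to 45. The labels name no Cre or promoter for the deletion, so it is not stated to be limited to microglia, and they do not tell whether the replicates are separate animals or cultures. A p-value here thus weighs a difference only against the spread among these libraries, which could be technical.

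In replication, the origin recognition complex, Cdc6 and Cdt1 load the ring of Mcm2 to Mcm7 onto origins in a step called licensing. Cdc45 and the GINS complex then turn the ring into an active helicase, DNA polymerase alpha with primase lays primers, and polymerases delta and epsilon extend them on the Pcna clamp that replication factor C loads. Ribonucleotide reductase, thymidylate synthase and thymidine kinase supply nucleotides, and Uhrf1, Dnmt1 and chromatin assembly factor 1 copy methylation and nucleosomes behind the fork. Many of these genes are classical targets of E2F transcription factors, which cyclin E with its kinase releases from the retinoblastoma protein. Microglia of the adult brain divide rarely at rest and can proliferate after injury. In bulk RNA, fewer cells in S phase and less RNA per cell cannot be told apart.

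Total counts ranged from 9885259 to 45347118 per library, and every recovery library was shallower than every OGD library. The level of a gene is given in CPM, its count relative to the TMM-adjusted library size, a scale not divided by gene length. Slc2a5 had 17, 4 and 17 counts in KO-OGD and 45, 40 and 58 in WT-OGD. After recovery it had 1, 0 and 0 counts in KO-recovery and 1, 2 and 0 in WT-recovery, at or under a floor of 3 counts per group, so it could not check the labels there. The treatment field of WT-recovery replicate 1 names no recovery, against its title and library name, and it was grouped by its title. Xist, an X-linked RNA of female cells, had between 4101 and 10232 counts in each KO-recovery, KO-OGD and WT-OGD library, against 0, 3 and 0 in WT-recovery, although all were labelled male. Xist stood at 242, 231 and 244 CPM in KO-OGD and 159, 151 and 159 CPM in WT-OGD. Y-linked Ddx3y had counts in every library, at 14.7, 14.8 and 21.5 CPM in KO-recovery and 44.8, 49.7 and 47.5 CPM in WT-recovery, and 21.5, 29.2 and 23.8 CPM in KO-OGD and 46.2, 39.5 and 37.9 CPM in WT-OGD. Both genes were apart between genotypes in both states, so genotype and this difference cannot be told apart in either. Xist was also apart between the states in each genotype, at 354, 335 and 312 CPM in KO-recovery and 0, 0.183 and 0 CPM in WT-recovery. The change over recovery in each genotype, and the difference between these changes, thus cannot be told apart from the Xist difference either. The share of counts on mitochondrial genes ranged between 4.72 and 10.5% in KO-recovery, between 7.35 and 18.4% in WT-recovery, between 4.20 and 5.36% in KO-OGD and between 4.94 and 5.75% in WT-OGD. Of the 10 microglia markers, Csf1r and C1qa were abundant and Cx3cr1 was present in every library. Siglech had no count in KO-recovery, WT-recovery or WT-OGD, and Tmem119 was at 0.166, 0.263 and 0.164 CPM in KO-OGD and 0.220, 0.0295 and 0.104 CPM in WT-OGD. Connective tissue and muscle markers summed to 316, 16.98 and 278 CPM in KO-recovery and 75.4, 41.1 and 25.8 CPM in WT-recovery, so KO-recovery replicates 1 and 3 stood apart.

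Promoter windows from RefSeq (GRCm38.p6), 250 bases before to 50 after a start site, were held for 34 of the 42 genes. They were searched on both strands for 4 forms of the E2F site: TTTCCCGC, TTTCGCGC, TTTGCCGC and TTTGGCGC. A match was found in 15 of the 34 genes (44.1%), against 704 of 27025 genes with a window (2.60%). The letters CCAAT were found in 58.8% of the 34 and 41.1% of all, and a cell cycle homology element (TTTGAA or TTCGAA) in 23.5% and 21.7%. The sequences printed here are the 200 bases before the start of genes that the results below turn on, in the direction of the gene, with E2F matches in capitals. Those of Mcm5 (chr8:75109309-75109508 on the plus strand), Cdc6 (chr11:98907951-98908150 on the plus strand), Mcm6 (chr1:128359706-128359905 on the minus strand) and the second window of Uhrf1 (chr17:56304113-56304312 on the plus strand) hold a match. Those of Rrm2 (chr12:24708054-24708253 on the plus strand) and Chaf1b (chr16:93883701-93883900 on the plus strand) hold none. The first window of Uhrf1 (chr17:56303087-56303386), which spans the start of the annotated gene, also holds none. The printed stretches of Cdc6 and Uhrf1 lie inside the annotated genes, which start at chr11:98907801 and chr17:56303321. Their matches are thus not upstream of those annotated starts. A gene was counted as having a match if any of its windows held one.
Mcm5: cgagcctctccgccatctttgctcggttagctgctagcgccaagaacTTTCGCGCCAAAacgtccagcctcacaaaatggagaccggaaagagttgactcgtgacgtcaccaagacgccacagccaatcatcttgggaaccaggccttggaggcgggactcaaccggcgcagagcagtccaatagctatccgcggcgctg
Cdc6: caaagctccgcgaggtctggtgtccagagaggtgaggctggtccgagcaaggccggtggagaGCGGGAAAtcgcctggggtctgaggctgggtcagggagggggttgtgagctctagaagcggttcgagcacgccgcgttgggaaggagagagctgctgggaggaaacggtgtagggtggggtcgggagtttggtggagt
Mcm6: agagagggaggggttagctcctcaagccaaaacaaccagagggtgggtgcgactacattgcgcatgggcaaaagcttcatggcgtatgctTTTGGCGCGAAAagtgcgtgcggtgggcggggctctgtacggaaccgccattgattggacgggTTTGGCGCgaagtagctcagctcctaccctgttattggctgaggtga
Uhrf1: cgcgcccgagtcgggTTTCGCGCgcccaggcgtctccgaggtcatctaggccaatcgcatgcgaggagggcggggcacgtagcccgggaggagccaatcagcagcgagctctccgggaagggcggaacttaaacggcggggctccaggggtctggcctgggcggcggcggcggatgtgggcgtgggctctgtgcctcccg
Rrm2: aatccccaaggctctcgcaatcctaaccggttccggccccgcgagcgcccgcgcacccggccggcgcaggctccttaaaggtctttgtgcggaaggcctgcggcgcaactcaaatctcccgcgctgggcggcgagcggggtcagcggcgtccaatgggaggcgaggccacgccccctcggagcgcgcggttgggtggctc
Chaf1b: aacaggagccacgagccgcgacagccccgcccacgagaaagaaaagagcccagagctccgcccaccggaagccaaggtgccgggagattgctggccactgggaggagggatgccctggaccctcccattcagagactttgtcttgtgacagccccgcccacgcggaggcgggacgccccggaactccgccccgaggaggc

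In Mcm5 the matches start 153 and 149 bases before the start site and overlap as an inverted pair, TTTCGCGC and the reverse complement of TTTGGCGC. Mcm6 holds such a pair at 110 and 106 bases and a further match at 47. Genes with and without a match are set side by side as a description. The 15 genes with one had a median log2 fold change of -0.36 between genotypes after OGD, with 7 called lower. The 19 without one had a median of -0.34, with 5 called lower (6.52% of all genes). After recovery the medians were 0.39 with 6 called higher, and 0.28 with 5 called higher (10.1%). Over recovery in WT they were 0.62 with 10 called higher, and 0.31 with 9 (26.9%). Over recovery in KO they were 1.33 with 13 called higher, and 1.21 with 18 (29.3%). For the change over recovery in KO minus that in WT they were 0.71 with 11 called higher, and 0.72 with 8 (2.89%). The windows for Mcm4, Gins1, Gins2, Gins4, Prim2, Pole, Rfc2 and Ccne2 were not held.

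Replication and S phase genes were lowest in knockout cells at the end of OGD and highest in knockout cells after recovery. Their summed level was 1150, 1187 and 1161 CPM in KO-recovery and 935, 991 and 958 CPM in WT-recovery, and 591, 581 and 600.2 CPM in KO-OGD and 669, 655 and 723 CPM in WT-OGD, and the 4 groups did not overlap. Calls were made with edgeR's quasi-likelihood test, at a p below 0.05 after Benjamini-Hochberg adjustment over 18842 genes. A fold change given after OGD or after recovery compares KO with WT in that state, not with an earlier time. At the end of OGD, 15 of 42 were called lower in KO-OGD than in WT-OGD and 0 higher, where 6.52% of all genes were called lower and 0.966% higher. At an unadjusted p under 0.05, edgeR had 1 higher, Rfc2, which DESeq2 called. After recovery, 14 of 42 were called higher in KO-recovery than in WT-recovery and 0 lower, where 10.1% of all genes were called higher and 22.2% in either direction. At an unadjusted p under 0.05 edgeR had 1 lower, and DESeq2 called 0. The median log2 fold change of the 42 was -0.35 after OGD and 0.32 after recovery, against -0.01 and 0.01 for all genes. The plot by library shows this order in most genes, with Cdt1, Dnmt1 and Ccne2 among those that depart from it.

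**Figure D1:**
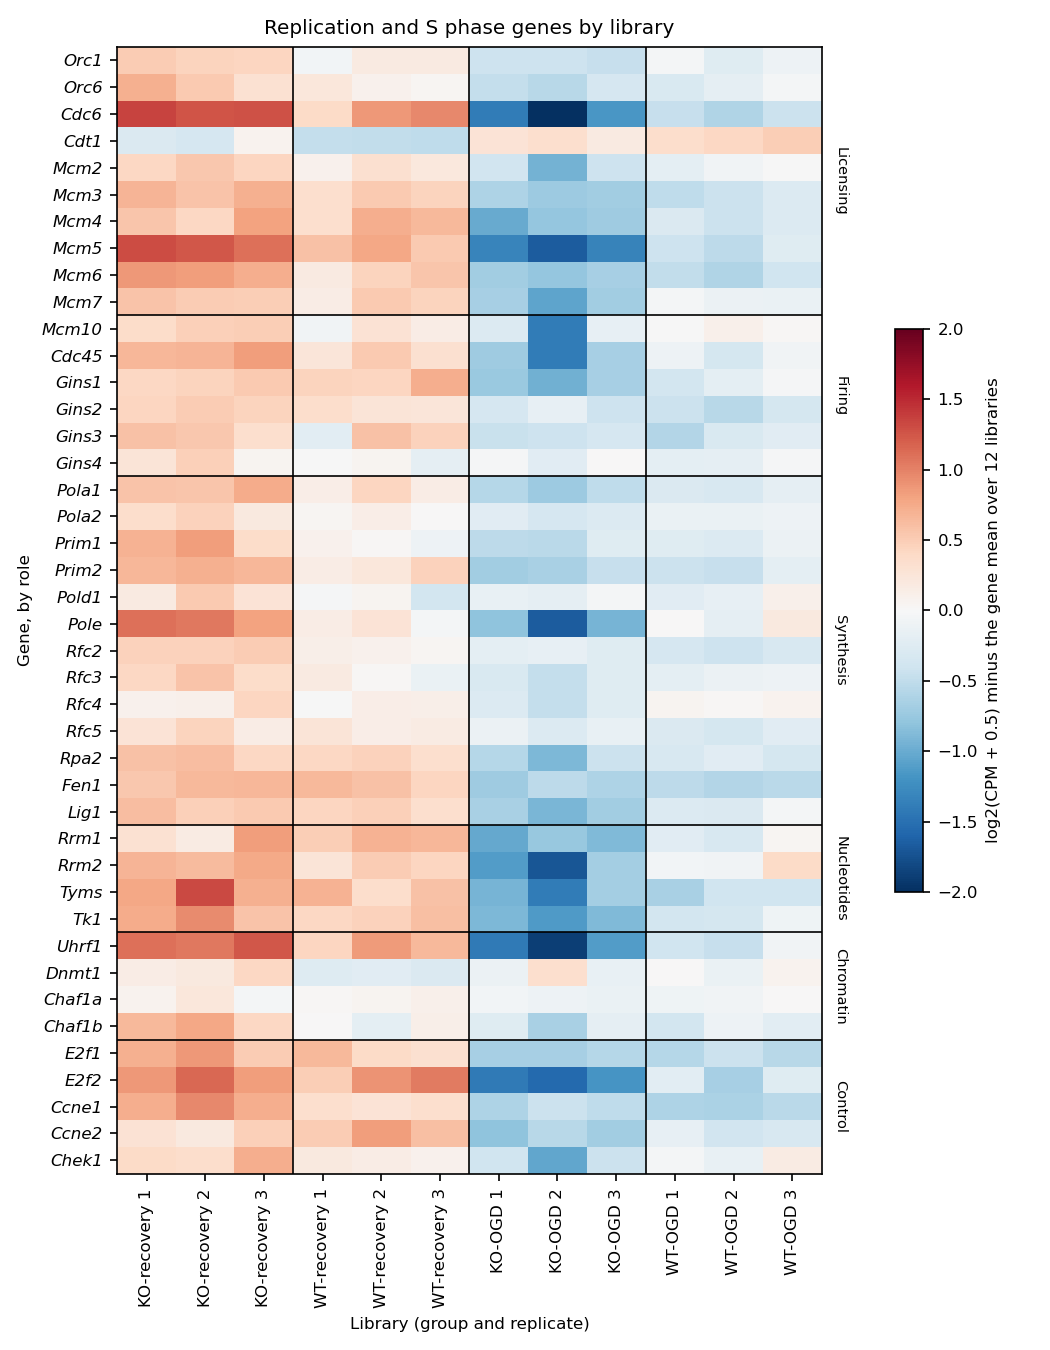
Level of each of the 42 genes in each of the 12 libraries, as log2(CPM + 0.5) minus the mean of the gene over the 12 libraries (red higher, blue lower), with columns by group and rows by role. KO-OGD libraries are the bluest columns and KO-recovery libraries the reddest, while Cdt1 runs the other way between the states.

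Over the 24 h of recovery both genotypes raised these genes, with the larger rise in the knockout for 21 of 42. In KO cells 39 of 42 rose, from a log2 fold change of 0.35 for Gins4 to 3.25 for Cdc6, where 29.3% of the genes tested rose and 29.6% fell. In WT cells 25 of 42 rose, where 26.9% of the genes tested rose and 29.9% fell, and all 25 were among the 39. Cdt1 alone fell, and it fell in both genotypes. The median log2 fold change of the 42 was 1.26 in KO, against 0.000229 for all genes, and 0.56 in WT, against -0.03. The difference itself, the change over recovery in KO minus that in WT, was called for 21 of 42, all with the larger rise in KO, where 2.89% of all genes were called in that direction and 2.36% in the other. It was positive in 42 of 42, with a median of 0.65 against 0.03 for all genes. The plot of both recovery changes shows nearly all genes above the line of equal change.

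**Figure D2:**
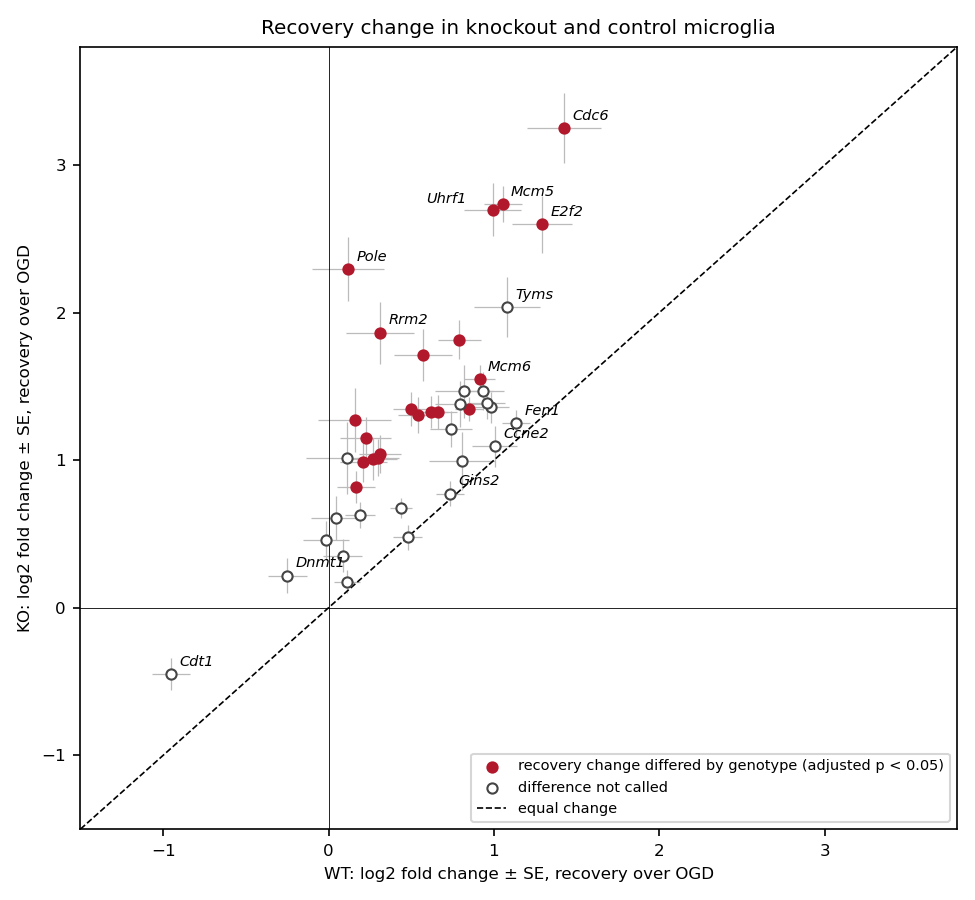
Recovery change of each gene in KO (vertical) against WT (horizontal), as log2 fold change of recovery over OGD with SE bars, n = 3 libraries a group. Filled points are the 21 genes whose change differed between genotypes, and the dashed line marks equal change. Pole, Cdc6, Uhrf1, Mcm5 and Rrm2 lie farthest above the dashed line.

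Single libraries decided part of these calls. Of the 15 calls after OGD, 9 were made in each of the 12 fits that left out 1 library, and those of Mcm2, Mcm3, Mcm4, Cdc45, Gins1 and Rrm1 were not (adjusted p up to 0.318, for Mcm3, by edgeR). Without WT-OGD replicate 3 the count after OGD was 9, in a fit that called 2.42% of all genes lower. Of the 14 calls after recovery, 8 were made in every such fit, and those of Orc6, Pola1, Pola2, Prim2, Pold1 and Rfc3 were not (adjusted p up to 0.166, for Pold1). The count after recovery was 9 without WT-recovery replicate 3 (6.65% of all genes), and without KO-recovery replicate 3 there were 2 lower calls, Ccne2 and Rrm1. Of the 21 calls on the difference in recovery, 11 were made in every fit, and those of Orc1, Orc6, Mcm2, Mcm3, Pola1, Prim1, Prim2, Rfc3, Chaf1b and Chek1 were not. That count was 11 without WT-OGD replicate 3 (1.34% of all genes), 12 without KO-recovery replicate 1 (1.56%) and 13 without WT-recovery replicate 3 (1.57%). Without the KO-recovery replicates 1 and 3, which carried the connective tissue and muscle transcripts, it was 13 (2.49% of all genes), and 13 genes were called higher after recovery (8.43%). KO-recovery then held 1 library, which was assumed to vary like those of the other groups.

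Of the 10 licensing genes, 6 were called lower in KO-OGD than in WT-OGD (6.52% of all genes). For 8 the change over recovery was called as larger in KO (2.89% of all genes). Over recovery 9 rose in KO (29.3% of all genes) and 6 in WT (26.9%), and Cdt1 fell in both. In level, all 10 had KO-OGD libraries wholly below WT-OGD libraries, where 17.2% of all genes were separated in this way. After recovery 3 were called higher in KO-recovery, Orc6, Mcm5 and Mcm6, where 10.1% of all genes were called higher. Mcm5 (ENSMUSG00000005410.6, GRCm38 chr8:75109569-75128439), a subunit of the helicase ring, was 1 of 2 members called in opposite directions in the 2 states. It stood at 45.5, 43.8 and 39.6 CPM in KO-recovery and 27.5, 31.6 and 26.4 CPM in WT-recovery, and at 6.96, 5.39 and 6.92 CPM in KO-OGD and 13.5, 12.5 and 15.2 CPM in WT-OGD. The 4 groups of Mcm5 did not overlap, with KO-recovery on top and KO-OGD at the bottom. Its log2 fold change between genotypes was -1.09, SE 0.12, adjusted p = 6.55e-05, after OGD and 0.59, SE 0.11, adjusted p = 0.00188, after recovery. Over recovery it rose by 2.74 in KO and 1.05 in WT, a difference of 1.68, SE 0.16, adjusted p = 6.69e-05.

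Cdc6 (ENSMUSG00000017499.15, GRCm38 chr11:98907801-98923940), the ATPase that brings the ring to the origin, had the largest recovery change of the 42 in either genotype. It stood at 10.3, 9.63 and 9.80 CPM in KO-recovery and 5.02, 7.26 and 7.77 CPM in WT-recovery, and at 1.11, 0.559 and 1.39 CPM in KO-OGD and 2.59, 2.30 and 2.66 CPM in WT-OGD. Its genotypes did not overlap in either state. After OGD it was lower in KO (-1.28, SE 0.24, adjusted p = 0.00447), and after recovery the value of 0.55 was not called (adjusted p = 0.0792). The rise over recovery was 3.25 in KO and 1.42 in WT on the log2 scale, and the difference of 1.83 was called (adjusted p = 0.00487). Cdt1 (ENSMUSG00000006585.3, GRCm38 chr8:122568015-122573554), the partner of Cdc6 in loading, went the other way between the states. Cdt1 stood at 10.9, 10.6 and 14.1 CPM in KO-recovery and 9.59, 9.40 and 9.32 CPM in WT-recovery, and at 16.3, 17.2 and 15.3 CPM in KO-OGD and 17.3, 18.2 and 19.2 CPM in WT-OGD. All 6 recovery libraries of Cdt1 lay below all 6 OGD libraries. It fell over recovery in KO (-0.45, adjusted p = 0.00263) and in WT (-0.95, adjusted p = 5.53e-06), and no genotype comparison was called (-0.16, adjusted p = 0.463, after OGD and 0.34, adjusted p = 0.0572, after recovery).

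The other ring subunits differed among themselves. Mcm2 stood at 28.9, 31.7 and 29.4 CPM in KO-recovery and 23.1, 27.1 and 25.1 CPM in WT-recovery, and at 16.5, 11.04 and 16.1 CPM in KO-OGD and 18.9, 20.6 and 21.4 CPM in WT-OGD. Mcm7 stood at 34.2, 32.4 and 32.3 CPM in KO-recovery and 25.3, 33.1 and 31.1 CPM in WT-recovery, and at 14.1, 10.7 and 13.9 CPM in KO-OGD and 22.03, 20.8 and 20.8 CPM in WT-OGD. Both were lower in KO-OGD than in WT-OGD without overlap, and after recovery only those of Mcm2 remained apart. The log2 fold change of KO-OGD over WT-OGD was -0.48 for Mcm2 (adjusted p = 0.0282), a value that moved to -0.30 (adjusted p = 0.0942) without KO-OGD replicate 2, its lowest library. For Mcm7 it was -0.71 (adjusted p = 0.00126), and 23.3% of its exonic 50-base words also occur in other annotated genes, chiefly the pseudogene Gm5487, so its level is uncertain. Their recovery changes differed by 0.73, adjusted p = 0.0298, for Mcm2 and 0.85, adjusted p = 0.00746, for Mcm7.

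Mcm3 stood at 66.3, 61.6 and 67.8 CPM in KO-recovery and 52.2, 59.5 and 56.7 CPM in WT-recovery, and at 26.7, 24.7 and 25.5 CPM in KO-OGD and 29.1, 30.6 and 34.01 CPM in WT-OGD. Mcm4 stood at 30.3, 27.5 and 36.4 CPM in KO-recovery and 26.03, 34.2 and 32.5 CPM in WT-recovery, and at 9.92, 11.8 and 12.4 CPM in KO-OGD and 16.8, 15.1 and 16.9 CPM in WT-OGD. In KO-OGD both lay below every WT-OGD library, and in the recovery groups Mcm4 overlapped. Between KO-OGD and WT-OGD the log2 fold changes, both called, were -0.28, adjusted p = 0.0475, for Mcm3 and -0.52, adjusted p = 0.0189, for Mcm4, and neither was called between genotypes after recovery (0.22 and 0.02). Mcm6 stood at 66.8, 65.3 and 60.5 CPM in KO-recovery and 41.1, 49.5 and 53.2 CPM in WT-recovery, and at 22.2, 20.96 and 22.6 CPM in KO-OGD and 25.5, 23.8 and 27.2 CPM in WT-OGD. It was the ring subunit called between genotypes only after recovery, at 0.42, SE 0.09, adjusted p = 0.00557, while after OGD its -0.22 was not called (adjusted p = 0.219). The difference in recovery change was called for Mcm3 (0.50, adjusted p = 0.0231) and Mcm6 (0.63, adjusted p = 0.0126) and not for Mcm4 (0.53, adjusted p = 0.0967).

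Of the origin recognition genes, Orc1, the large ATPase subunit, stood at 5.80, 5.55 and 5.46 CPM in KO-recovery and 3.77, 4.52 and 4.51 CPM in WT-recovery, and at 2.82, 2.83 and 2.73 CPM in KO-OGD and 3.81, 3.25 and 3.66 CPM in WT-OGD. Orc6, the smallest subunit, stood at 18.1, 15.8 and 13.7 CPM in KO-recovery and 12.9, 11.6 and 11.2 CPM in WT-recovery, and at 7.67, 7.29 and 8.53 CPM in KO-OGD and 8.76, 9.56 and 10.5 CPM in WT-OGD. KO-OGD lay below WT-OGD and KO-recovery above WT-recovery in both, without overlap. Only Orc6 after recovery was called (0.42, adjusted p = 0.0274), and Orc1 stood at 0.38, adjusted p = 0.0803. Both rose over recovery in KO (log2 fold changes of 1.00 and 1.02) and neither was called in WT (0.27 and 0.30), with differences of 0.74, adjusted p = 0.0486, and 0.72, adjusted p = 0.0291. Exons of Orc1 overlap other annotated genes over 10.8% of their length.

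**Figure D3:**
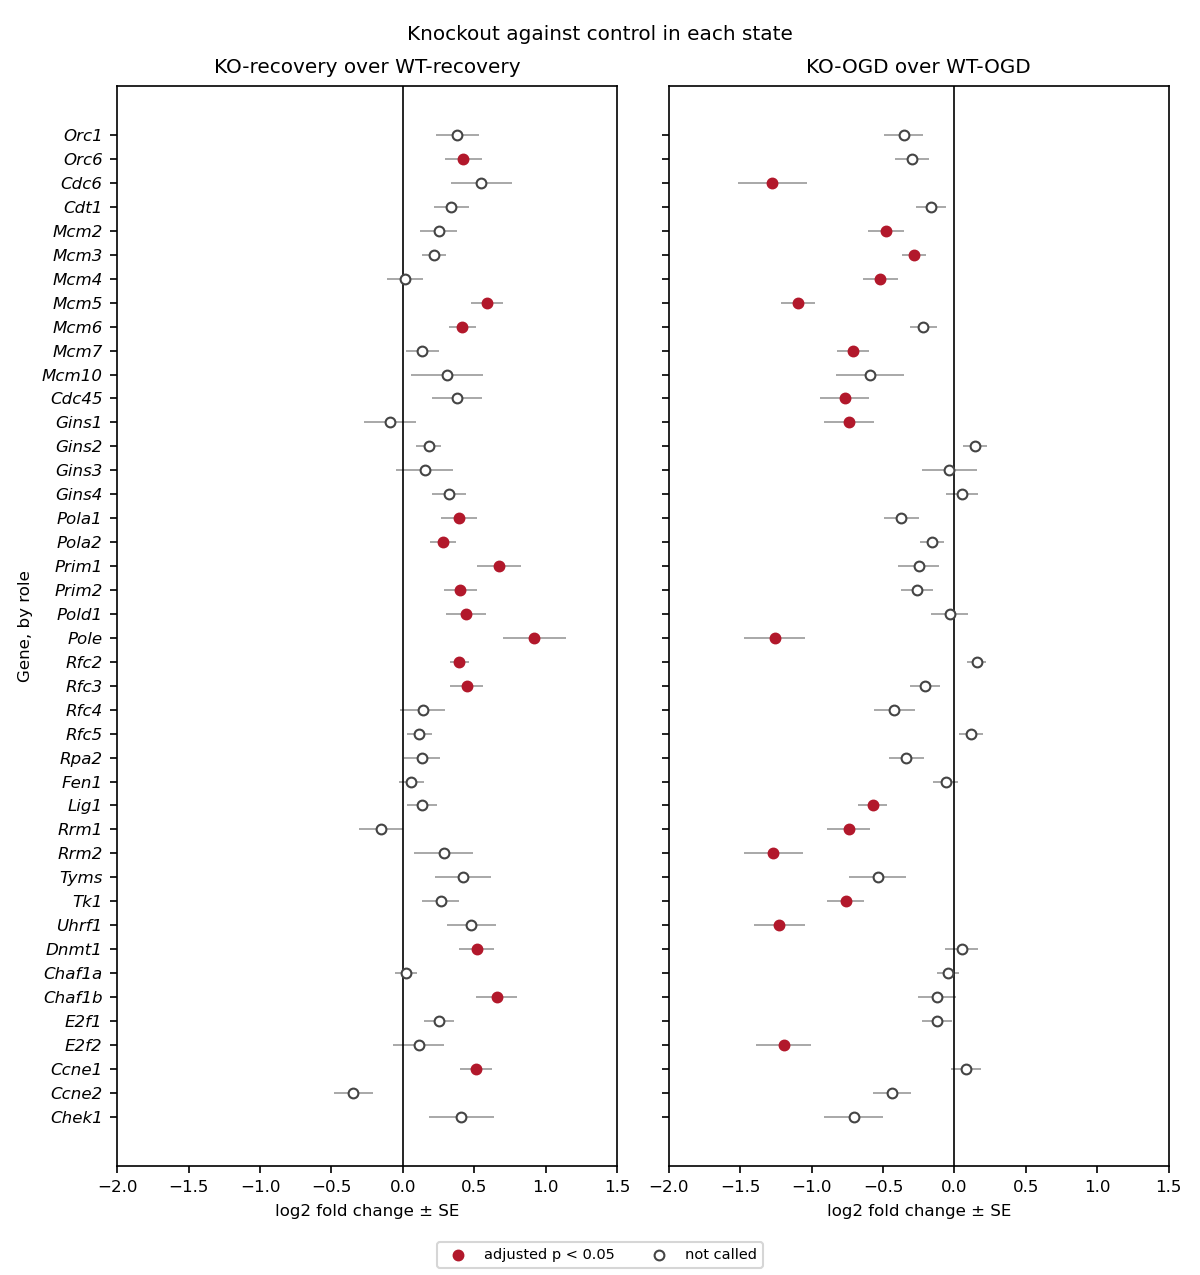
Log2 fold change of KO over WT with SE bars for each of the 42 genes, after recovery (left) and at the end of OGD (right), with filled points called at an adjusted p below 0.05. Most genes lie right of 0 after recovery and left of 0 after OGD, and Mcm5 and Pole are filled on both sides.

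Of the 6 origin firing genes, 2 were called lower in KO-OGD than in WT-OGD, Cdc45 and Gins1, where 6.52% of all genes were lower. Between genotypes after recovery, 0 were called by edgeR's test, where 22.2% of all genes were called. There 2 passed an unadjusted 0.05 by edgeR, and DESeq2 called 0. Cdc45, the helicase cofactor, stood at 13.8, 13.96 and 15.6 CPM in KO-recovery and 10.2, 12.4 and 10.7 CPM in WT-recovery, and at 5.02, 2.92 and 5.20 CPM in KO-OGD and 7.86, 6.58 and 8.06 CPM in WT-OGD. KO-OGD lay below WT-OGD and KO-recovery above WT-recovery. It was lower in KO-OGD (-0.77, SE 0.17, adjusted p = 0.0123), its value after recovery was 0.38, adjusted p = 0.138, and its recovery change differed by 1.14, adjusted p = 0.0146. Gins1, a subunit of the GINS ring, stood at 1.73, 1.41 and 1.86 CPM in KO-OGD and 2.42, 2.77 and 3.18 CPM in WT-OGD (-0.74, adjusted p = 0.0167), and its recovery groups overlapped (-0.09). Gins4, another subunit, had the smallest p of the 6 after recovery and stood at 22.8, 26.8 and 19.9 CPM in KO-recovery and 18.8, 19.7 and 16.7 CPM in WT-recovery, with KO above WT in every library but without a call (0.32, adjusted p = 0.0668). Gins4 had a level of 17.1 CPM per kilobase of exon in KO-recovery, among the highest of the 42 on that scale. Mcm10, a firing factor, and Gins2 and Gins3 were called in neither genotype comparison, with KO-OGD replicate 2 the lowest library of Mcm10 at 2.69 CPM. Over recovery all 6 rose in KO (29.3% of all genes) and 4 rose in WT (26.9%), and Mcm10 and Gins4 were not called in WT (0.11 and 0.09). Exons of Gins2 overlap those of Gse1 over 67.3% of their length, and its level is uncertain.

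Of 13 genes of fork synthesis, 8 were called higher in KO-recovery than in WT-recovery (10.1% of all genes). They were Pola1, Pola2, Prim1, Prim2, Pold1, Pole and 2 of the 4 clamp loader genes, Rfc2 and Rfc3. At the end of OGD, 2 were called lower in KO-OGD, Pole and Lig1 (6.52% of all genes). Pole (ENSMUSG00000007080.14, GRCm38 chr5:110286306-110337474), the catalytic subunit of the leading strand polymerase epsilon, was the second member called in opposite directions. It stood at 11.4, 11.02 and 9.16 CPM in KO-recovery and 5.59, 6.16 and 4.88 CPM in WT-recovery, and at 2.67, 1.25 and 2.41 CPM in KO-OGD and 5.07, 4.40 and 5.86 CPM in WT-OGD. Its KO-OGD libraries were the lowest and its KO-recovery libraries the highest, and the 2 WT groups overlapped. Pole was at 2.11 ± 0.758 CPM in KO-OGD and 5.11 ± 0.733 CPM in WT-OGD (SD, n = 3; -1.26, SE 0.21, adjusted p = 0.00224), and the log2 fold change between genotypes after recovery was 0.92, SE 0.22, adjusted p = 0.00751. It rose over recovery in KO (2.29, adjusted p = 4.00e-07) with 0.12 in WT (adjusted p = 0.666), and the difference of 2.18 was the largest of the 42 (adjusted p = 0.00109). Calls in opposite directions in the 2 states were made for 2 of 42, 2 of the 15 lower and 2 of the 14 higher ones, against 0.170% of all genes.

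The primase and polymerase alpha genes were higher together in the knockout after recovery. Prim1, the catalytic primase subunit, stood at 11.3, 12.5 and 8.83 CPM in KO-recovery and 7.19, 6.90 and 6.29 CPM in WT-recovery, and at 4.52, 4.47 and 5.63 CPM in KO-OGD and 5.64, 5.52 and 6.22 CPM in WT-OGD. Prim2, its large partner, stood at 19.7, 20.5 and 19.6 CPM in KO-recovery and 13.6, 14.5 and 17.01 CPM in WT-recovery, and at 7.41, 7.66 and 8.78 CPM in KO-OGD and 9.03, 8.82 and 10.7 CPM in WT-OGD. KO-recovery lay above WT-recovery in both without overlap (0.67, adjusted p = 0.00592, and 0.40, adjusted p = 0.0221), and neither was called after OGD. Pola1, the catalytic subunit of polymerase alpha and the only member on the X chromosome, stood at 12.3, 12.2 and 13.9 CPM in KO-recovery and 8.91, 11.1 and 9.02 CPM in WT-recovery, and at 5.26, 4.70 and 5.52 CPM in KO-OGD and 6.56, 6.37 and 7.09 CPM in WT-OGD. It was higher in KO-recovery (0.39, adjusted p = 0.0360), where Xist also differed between genotypes, and the part of that difference was not tested. Pola2, its accessory subunit, and Pold1, the catalytic subunit of the lagging strand polymerase delta, were called at 0.28, adjusted p = 0.0370, and 0.44, adjusted p = 0.0341. The recovery changes of Prim1, Prim2 and Pola1 differed by 0.92, 0.67 and 0.76.

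Clamp loader genes differed by subunit. Rfc2 stood at 116, 116 and 120.5 CPM in KO-recovery and 91.7, 89.4 and 86.6 CPM in WT-recovery, and at 73.9, 74.9 and 71.4 CPM in KO-OGD and 66.99, 63.3 and 67.1 CPM in WT-OGD. Rfc3 stood at 15.1, 16.98 and 14.7 CPM in KO-recovery and 12.8, 11.4 and 10.2 CPM in WT-recovery, and at 9.04, 7.95 and 9.41 CPM in KO-OGD and 9.76, 10.4 and 10.4 CPM in WT-OGD. After recovery KO lay above WT in both (0.40, adjusted p = 8.01e-04, and 0.45, adjusted p = 0.0125), while Rfc4 and Rfc5 were not called (0.14 and 0.11). Rfc2 had the smallest p of the 13 there, and its KO-OGD libraries also lay above WT-OGD without a call (0.16, adjusted p = 0.211). Of the loader, the recovery change differed for Rfc3 only (0.65, adjusted p = 0.0283). Rfc2, Rfc4 and Rfc5 overlap other genes over more than 10% of their exons and are uncertain.

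Lig1, the ligase that seals Okazaki fragments, was lower in the knockout at the end of OGD. It stood at 23.8, 21.5 and 22.2 CPM in KO-recovery and 20.8, 21.4 and 19.4 CPM in WT-recovery, and at 9.63, 7.92 and 9.33 CPM in KO-OGD and 12.6, 12.5 and 14.9 CPM in WT-OGD. KO-OGD lay below WT-OGD in every library (-0.57, SE 0.10, adjusted p = 0.00326), the recovery groups differed by 0.13, adjusted p = 0.396, and the recovery changes differed by 0.71, adjusted p = 0.0126. Fen1, the flap nuclease that acts before it, rose in both genotypes (1.25 in KO and 1.13 in WT, difference 0.12, adjusted p = 0.628). Exons of Fen1 overlap those of Gm10143 and Tmem258 over 84.2% of their length, so its level is uncertain. Rpa2, a subunit of the single-strand binding protein, was called in neither genotype comparison (-0.34 and 0.14) and rose over recovery in both.

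Of the 4 nucleotide supply genes, 3 were called lower in KO-OGD than in WT-OGD (6.52% of all genes). After recovery 0 were called by edgeR's test (0 at an unadjusted 0.05, and 0 by DESeq2), where 22.2% of all genes were called. Rrm2 (ENSMUSG00000020649.11, GRCm38 chr12:24708241-24714146), the small subunit of ribonucleotide reductase that is made in S phase, stood at 26.2, 25.3 and 27.8 CPM in KO-recovery and 19.5, 23.2 and 22.1 CPM in WT-recovery, and at 7.17, 4.60 and 9.90 CPM in KO-OGD and 15.7, 15.5 and 21.3 CPM in WT-OGD. KO-OGD libraries were all below WT-OGD libraries, and KO-recovery libraries all above WT-recovery libraries. It was at 7.22 ± 2.65 CPM in KO-OGD and 17.5 ± 3.29 CPM in WT-OGD (SD, n = 3; -1.27, SE 0.21, adjusted p = 0.00256), and after recovery its value was 0.28, adjusted p = 0.357. Over recovery it rose in KO by 1.86 with 0.31 in WT, and the changes differed by 1.55, adjusted p = 0.00985.

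Tk1, the S phase thymidine kinase, stood at 17.1, 19.6 and 15.05 CPM in KO-recovery and 13.5, 13.9 and 15.4 CPM in WT-recovery, and at 5.11, 4.27 and 5.20 CPM in KO-OGD and 7.66, 7.73 and 9.33 CPM in WT-OGD. Tyms, thymidylate synthase, stood at 15.1, 22.2 and 14.3 CPM in KO-recovery and 14.2, 11.1 and 13.2 CPM in WT-recovery, and at 4.28, 2.92 and 5.17 CPM in KO-OGD and 5.32, 6.37 and 6.38 CPM in WT-OGD. The OGD groups did not overlap in either, and Tk1 was called (-0.76, SE 0.13, adjusted p = 0.00222) while Tyms was not (-0.54, adjusted p = 0.142). Tk1 rose over recovery by 1.82 in KO and 0.79 in WT, a difference of 1.02, adjusted p = 0.00538, and for Tyms the difference was 0.96, adjusted p = 0.0641. Rrm1, the large subunit of the reductase, was lower in KO-OGD (-0.74, adjusted p = 0.00822) and lay at -0.15 after recovery, where its KO libraries ranged from 35.6 to 57.1 CPM.

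The chromatin group split by gene. Uhrf1 (ENSMUSG00000001228.14, GRCm38 chr17:56303321-56323486), which reads hemimethylated DNA and recruits Dnmt1, was lower in the knockout at the end of OGD. It stood at 27.1, 26.1 and 29.9 CPM in KO-recovery and 16.9, 22.6 and 19.7 CPM in WT-recovery, and at 4.33, 2.99 and 5.42 CPM in KO-OGD and 9.27, 8.82 and 11.8 CPM in WT-OGD. The 4 groups of Uhrf1 did not overlap. It was lower in KO-OGD (-1.22, SE 0.18, adjusted p = 8.31e-04), lay at 0.48, adjusted p = 0.0560, after recovery, and rose over recovery by 2.70 in KO and 0.99 in WT (difference 1.70, adjusted p = 0.00146). A share of 15.4% of its exonic 50-base words also occurs in other genes, chiefly Gm5648, and its level is uncertain.

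Chaf1b, the middle subunit of chromatin assembly factor 1, moved after recovery. It stood at 26.1, 28.4 and 22.1 CPM in KO-recovery and 16.6, 14.2 and 17.9 CPM in WT-recovery, and at 13.8, 10.3 and 14.4 CPM in KO-OGD and 12.6, 15.3 and 14.1 CPM in WT-OGD. Only the KO-recovery group was apart, above every other library (0.66, SE 0.14, adjusted p = 0.00435), while the OGD groups overlapped (-0.12). Dnmt1, the maintenance methyltransferase, was also higher in KO-recovery (80.6 ± 8.29 CPM) than in WT-recovery (56.4 ± 1.09 CPM, SD, n = 3; 0.52, adjusted p = 0.00679). It was not called over recovery in KO (0.22) or in WT (-0.25), and without KO-OGD replicate 2, its highest OGD library, both were called (0.40 and -0.24). Chaf1a, the large subunit, was called in no comparison, its recovery change being 0.18, adjusted p = 0.0578, in KO and 0.11, adjusted p = 0.231, in WT, and 52.5% of its exonic length overlaps other genes.

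Among the S phase regulators, E2f2, an activating E2F factor, was lower in KO-OGD than in WT-OGD. It stood at 10.7, 13.1 and 10.4 CPM in KO-recovery and 8.11, 10.99 and 12.1 CPM in WT-recovery, and at 1.80, 1.58 and 2.22 CPM in KO-OGD and 4.78, 3.36 and 4.68 CPM in WT-OGD. The OGD groups of E2f2 did not overlap and its recovery groups did. E2f2 was at 1.86 ± 0.324 CPM in KO-OGD and 4.27 ± 0.790 CPM in WT-OGD (SD, n = 3; -1.20, SE 0.19, adjusted p = 0.00139), and its recovery change differed by 1.31, adjusted p = 0.0106. E2f1, its relative, stood at 39.8, 44.1 and 34.3 CPM in KO-recovery and 37.9, 31.5 and 30.03 CPM in WT-recovery, and at 14.98, 15.02 and 16.00 CPM in KO-OGD and 16.1, 17.8 and 16.3 CPM in WT-OGD. Its genotypes overlapped after recovery, and no genotype comparison was called (-0.12 after OGD and 0.25 after recovery), while it rose over recovery in KO (1.36, adjusted p = 5.20e-08) and WT (0.98, adjusted p = 1.99e-06).

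Of the cyclin E genes, Ccne1 was called between genotypes after recovery and Ccne2 in neither state. Ccne1 stood at 16.1, 18.9 and 15.96 CPM in KO-recovery and 12.1, 11.5 and 12.1 CPM in WT-recovery, and at 5.99, 6.93 and 6.51 CPM in KO-OGD and 6.03, 5.93 and 6.38 CPM in WT-OGD. Ccne2 stood at 9.32, 8.65 and 10.7 CPM in KO-recovery and 10.8, 13.9 and 11.6 CPM in WT-recovery, and at 4.07, 4.96 and 4.46 CPM in KO-OGD and 6.64, 5.67 and 5.90 CPM in WT-OGD. KO-recovery lay above WT-recovery for Ccne1, without overlap, and below it for Ccne2. Ccne1 was called higher after recovery (0.51, SE 0.11, adjusted p = 0.00406), and Ccne2 was not called at -0.35, adjusted p = 0.0820, nor after OGD at -0.44, adjusted p = 0.0629, and 17.4% of its exonic length overlaps Ints8. Both rose over recovery in KO (1.39 and 1.09) and in WT (0.96 and 1.00). Chek1, the checkpoint kinase of stalled forks, stood at 4.11, 4.00 and 5.35 CPM in KO-recovery and 3.54, 3.42 and 3.25 CPM in WT-recovery, and at 2.18, 1.22 and 2.13 CPM in KO-OGD and 2.95, 2.69 and 3.45 CPM in WT-OGD. Its genotypes were apart in both states in opposite directions without a call (-0.71, adjusted p = 0.0535, after OGD and 0.41, adjusted p = 0.214, after recovery), and its recovery change differed by 1.12, adjusted p = 0.0488.

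**Figure D4:**
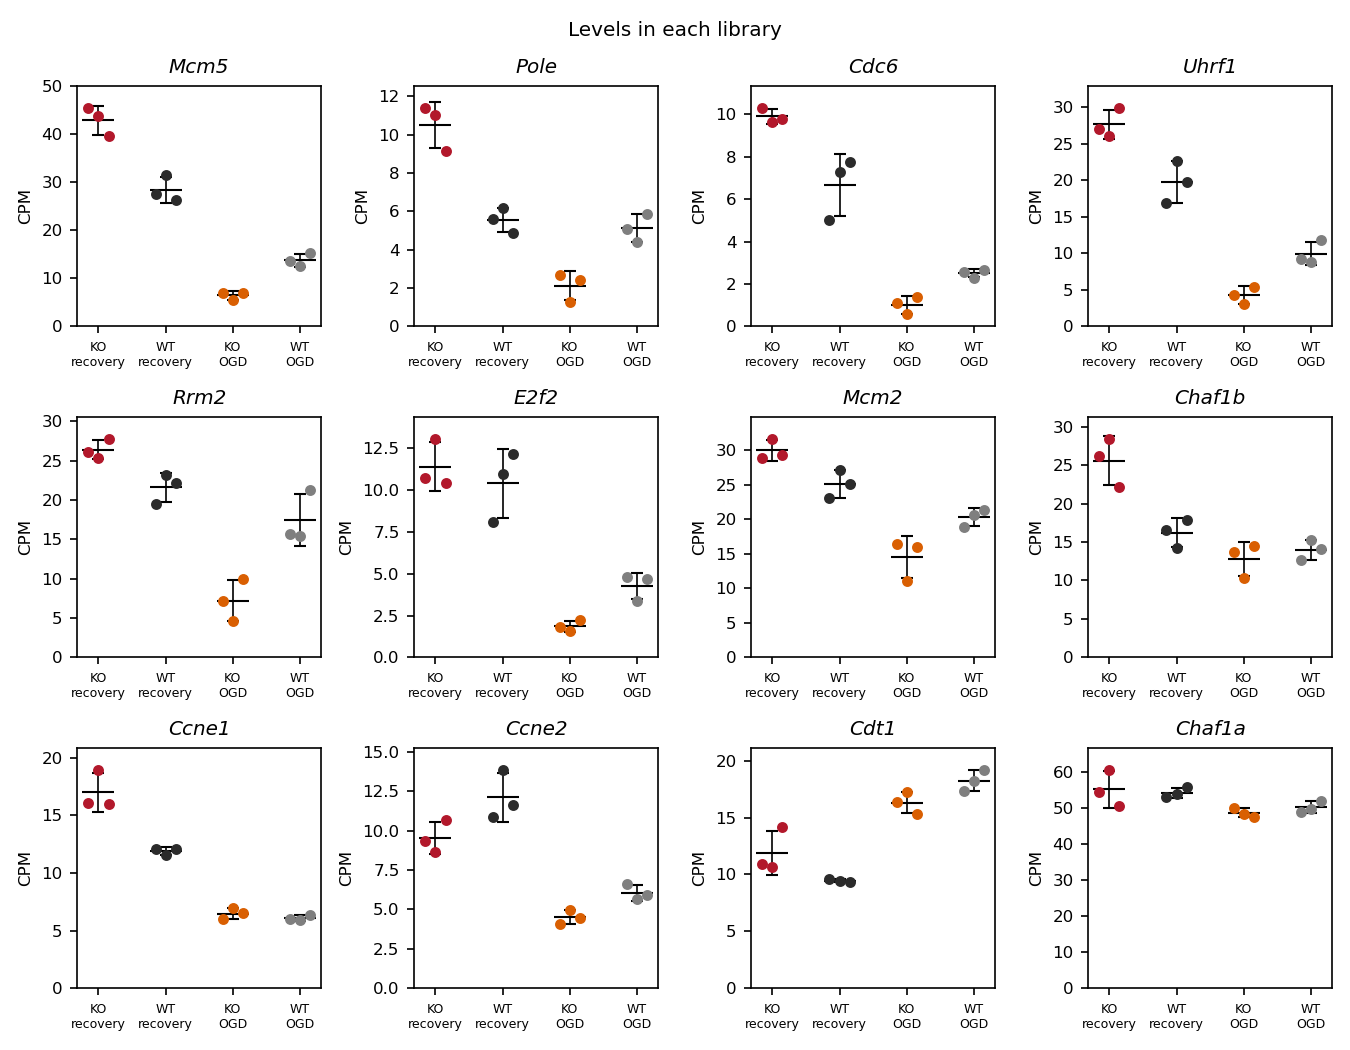
Level in CPM of 12 of the genes in each library, with the mean and SD of 3 libraries a group in black; each panel starts at 0. Mcm5, Pole, Cdc6, Uhrf1 and Rrm2 are lowest in KO-OGD and highest in KO-recovery, Cdt1 is lower after recovery in both genotypes, and Chaf1a is nearly level.

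Of 56 other replication genes, 16 were called lower in KO-OGD than in WT-OGD and 0 higher, where 6.52% of all genes were lower, with a median log2 fold change of -0.19. After recovery 5 were called higher and 2 lower in KO, where 10.1% of all genes were called higher and 22.2% in either direction. Top2a, E2f8 and Clspn had the smallest p after OGD, at -1.31, adjusted p = 2.67e-04, -1.27, adjusted p = 2.83e-04, and -1.46, adjusted p = 2.83e-04. Clspn, the adaptor that activates Chek1, also turned round, at 0.72, adjusted p = 0.0105, after recovery. Dna2, a nuclease-helicase, and Cdkn1b, a cyclin kinase inhibitor, were lower in KO-recovery (-0.73, adjusted p = 0.00623, and -0.46, adjusted p = 0.00677), and Cdkn1a, another inhibitor, was higher (0.33, adjusted p = 0.0320). Pcna, the sliding clamp, stood at 142, 150.3 and 157 CPM in KO-recovery and 150.2, 146 and 139 CPM in WT-recovery, and at 95.7, 114 and 104 CPM in KO-OGD and 103, 97.5 and 102 CPM in WT-OGD. Its genotypes overlapped in both states and it rose over recovery by 0.52 in KO and 0.52 in WT, though 19.1% of its exonic 50-base words occur also in the retrocopy Pcna-ps2.

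Mitosis genes were lower in the knockout at the end of OGD. Of 25, 24 were called and all 24 were lower in KO-OGD, with a median of -1.06, where 6.52% of all genes were lower. After recovery 1 was called higher, Kif23 (0.37, adjusted p = 0.0372), and 1 lower, Birc5 (-0.53, adjusted p = 0.0168), where 22.2% of all genes were called. Bub1, Bub1b and Birc5 led after OGD (-1.59, -1.33 and -1.39), and Cenpa came next after recovery (-0.20, adjusted p = 0.152). Over recovery 25 of 25 rose in KO (29.3% of all genes), and in WT 9 rose (26.9%) and 1 fell (29.9%). The change over recovery was called as larger in KO for 20 of 25, where 2.89% of all genes were called. The median difference was 1.09, against 0.65 for the 42 replication and S phase genes. Mki67, a general marker of cycling cells, stood at 82.00, 65.1 and 70.2 CPM in KO-recovery and 77.1, 85.5 and 79.7 CPM in WT-recovery, and at 37.1, 28.6 and 43.5 CPM in KO-OGD and 76.2, 69.2 and 87.2 CPM in WT-OGD. It was lower in KO-OGD (-1.09, adjusted p = 2.56e-04) and not called after recovery (-0.16, adjusted p = 0.445). The mitosis genes summed to 442, 448 and 408 CPM in KO-recovery and 422, 439 and 414 CPM in WT-recovery, and 175, 141 and 203 CPM in KO-OGD and 334, 311 and 387 CPM in WT-OGD. The ratio of the 42 to the mitosis genes was 2.60, 2.65 and 2.85 in KO-recovery, 2.22, 2.26 and 2.32 in WT-recovery, 3.39, 4.13 and 2.95 in KO-OGD and 2.01, 2.11 and 1.87 in WT-OGD, higher in the knockout in both states without overlap. Sums give most weight to abundant genes. Rfc2 and Dnmt1, among the most abundant of the 42, had means of 73.4 and 69.5 CPM in KO-OGD and 65.8 and 67.0 CPM in WT-OGD. The log2 fold change after OGD was negative in 36 of the 42.

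Astrocyte markers also moved with genotype. Their 11 genes summed to 136, 148 and 87.5 CPM in KO-recovery and 301, 314 and 283 CPM in WT-recovery, and 60.8, 56.6 and 81.5 CPM in KO-OGD and 142, 176 and 206 CPM in WT-OGD, and the genotypes did not overlap in either state. All 11 were called lower in KO-OGD, led by Aqp4, Sox9 and Gfap (-2.18, -1.89 and -2.26), and 8 in KO-recovery, led by S100b, Slc1a2 and Aldoc (-2.54, -2.26 and -0.60), and none was at 0 throughout. With their mean log2 level as a covariate, 0 of 42 were called lower after OGD by edgeR, with a median of -0.17, in a fit that called 0.127% of all genes lower, against 6.52% without the covariate. It called 6 of 42 higher after recovery, with a median of 0.56, and 2.73% of all genes, against 10.1% without it. The count on the difference in recovery was 24, against 3.39% of all genes. Since the covariate does not overlap between genotypes, marker level and genotype cannot be told apart in that fit. Neuron markers summed to 51.1, 41.5 and 39.03 CPM in KO-recovery and 139, 119 and 103 CPM in WT-recovery, and 16.3, 9.99 and 18.1 CPM in KO-OGD and 30.4, 40.2 and 46.2 CPM in WT-OGD, also lower in the knockout.

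Other macrophage markers moved with recovery and, in part, with genotype. Border macrophage markers, 8 genes, summed to 1475, 1600 and 1495 CPM in KO-recovery and 1330, 1146 and 999.6 CPM in WT-recovery, and 864, 967 and 851 CPM in KO-OGD and 871, 850.2 and 878 CPM in WT-OGD. KO-recovery lay above WT-recovery without overlap, and the OGD groups overlapped. Pf4, F13a1 and Siglec1 were called higher in KO-recovery (10.1% of all genes) and rose more in KO over recovery (2.89%). Of the 8 genes 6 rose over recovery in KO (29.3% of all genes) and 6 in WT (26.9%). Monocyte markers, 8 genes of which 6 were tested, summed to 299, 315 and 346 CPM in KO-recovery and 355, 318 and 287 CPM in WT-recovery, and 34.6, 28.8 and 31.97 CPM in KO-OGD and 44.7, 39.5 and 47.8 CPM in WT-OGD. All 6 rose over recovery in both genotypes (29.3% of all genes in KO and 26.9% in WT), and the sums overlapped between genotypes after recovery. Oligodendrocyte lineage markers, 10 genes, summed to 283, 315 and 259 CPM in KO-recovery and 323, 367 and 359 CPM in WT-recovery, and 155, 159 and 154 CPM in KO-OGD and 157, 163 and 164 CPM in WT-OGD, lower in KO-recovery than in WT-recovery without overlap. The part of these cells' transcripts and of the astrocyte and neuron transcripts in the results was not tested. Without the 2 libraries of highest mitochondrial share, 15 of 42 were called lower after OGD (6.69% of all genes) and 11 higher after recovery (8.16%). The difference in recovery was called with the larger rise in KO for 16 (2.91% of all genes). In that fit 38 rose in KO (27.7% of all genes) and 26 in WT (25.7%).

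**Figure D5:**
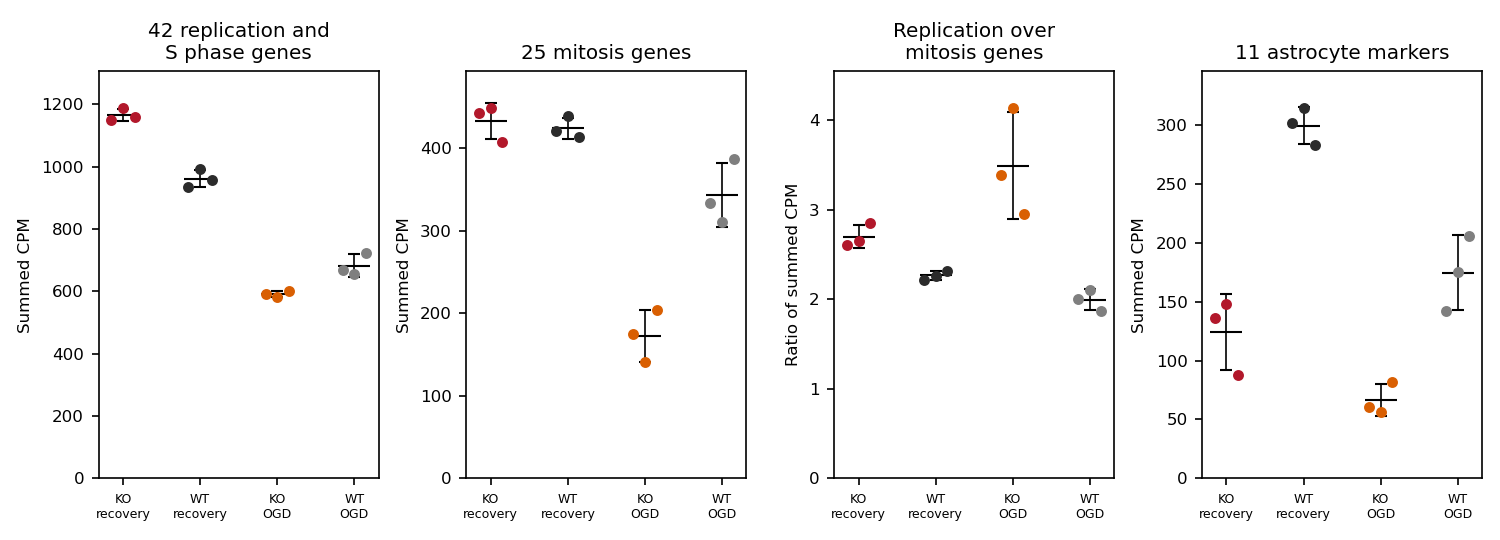
Summed CPM of the 42 genes, of 25 mitosis genes and of 11 astrocyte markers, and the ratio of the first to the second, in each library, with the mean and SD of 3 libraries a group in black; axes start at 0. The replication sum orders the 4 groups without overlap, mitosis genes are apart between genotypes after OGD only, and astrocyte markers are lower in the knockout in both states.

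The order KO-OGD below WT-OGD below WT-recovery below KO-recovery, chosen after the values were seen, was found in the group means of 31 of 42 genes and in 8.08% of all genes. KO-OGD was the lowest of the 4 means in 35 of 42 (25.2% of all genes) and KO-recovery the highest in 38 of 42 (27.2%). Groups were apart with KO below WT at the end of OGD in 30 of 42, against 17.2% of all genes, and with KO above WT after recovery in 28 of 42, against 16.4%.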

How the data were processed

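RNA was measured in 12 libraries made with the SMARTer Stranded Total RNA-Seq kit, per the labels. The authors deposited raw counts per gene, and HISAT2, featureCounts and the mouse build GRCm38 are named in the submitters' processing notes. Versions and counting options (strand, multiple matches) are not given in the sources used here, so members that share over 10% of their exons or 50-base words with another gene are called uncertain. Of 55421 identifiers, 55240 matched GENCODE M21 without their version number, which gave symbols and coordinates.

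Counts were fitted in R 4.3.3 with edgeR 4.0.16: filterByExpr (18842 genes kept), TMM scaling, robust glmQLFit on all 12 libraries with 1 mean per group and no covariate, glmQLFTest and Benjamini-Hochberg adjustment over all genes tested. Standard errors (SE) were derived from the fold change and its F statistic, as the size of the log2 value over the square root of F. The common biological coefficient of variation was 0.119. Depth was 9885259 to 45347118 counts, so low genes had the wider error in the shallower recovery libraries. Floors cover counting error only. Replicates within a group differed by more than sampling noise (chi-square per degree of freedom 6.66 to 60.2), and each library counted as 1 sample.

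The members, role groups and other gene lists were chosen with earlier results of these data known, so no list was tested. Per-library values were given for the member with the smallest p of each role group in each genotype comparison, for Mcm2 to Mcm7, Cdc6, Cdt1, Rrm2, Tk1, E2f1, E2f2, Ccne1 and Ccne2, and for members called in the difference in recovery or in opposite directions. Of the other replication, mitosis and astrocyte lists the 3 genes with the smallest p in each genotype comparison were named, with Pcna, Cdkn1a and Mki67. Alternatives were DESeq2 1.42.0, RLE size factors, other low-count filters, only the 6 libraries compared, a block for the replicate number, thinning to equal depth, an astrocyte covariate, and leaving out each library or the pair of highest mitochondrial share. Leaving out KO-recovery replicates 1 and 3 and a connective tissue and muscle covariate were chosen after seeing the data.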

Additional observations from a re-analysis of the deposited data

Results flagged for a closer look

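For 21 of the 42 genes the change over recovery differed between genotypes by edgeR's interaction test, with the larger rise in KO each time. On the log2 scale the difference, the change over recovery in KO minus that in WT, was above 1 for Pole (2.18), Cdc6 (1.83), Uhrf1 (1.70), Mcm5 (1.68), Rrm2 (1.55), E2f2 (1.31), Cdc45 (1.14), Chek1 (1.12) and Tk1 (1.02). It was below 1 for Prim1 (0.92), Mcm7 (0.85), Chaf1b (0.78), Pola1 (0.76), Orc1 (0.74), Mcm2 (0.73), Orc6 (0.72), Lig1 (0.71), Prim2 (0.67), Rfc3 (0.65), Mcm6 (0.63) and Mcm3 (0.50). The comparison rests on all 4 groups, and a difference here can come from lower levels in KO-OGD, higher levels in KO-recovery or both; the values by library for each gene are given above. Of the 21, 11 were called in every fit that left out 1 library. The larger rise in KO was not particular to the 42. It was also called for 20 of 25 mitosis genes (median difference 1.09, against 0.65 for the 42). Of 56 other replication genes it was called for 13 (median difference 0.20), where 2.89% of all genes were called. Xist was also apart between the states in each genotype, and the part of that difference was not tested.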

How the results depend on the processing

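Of the counts of members called, those that moved by over 1.5 times were as follows. With the astrocyte covariate, 0 in place of 15 were lower in KO after OGD (median -0.17) and 6 in place of 14 higher after recovery (median 0.56), as calls over all genes went to 0.127% in place of 6.52% and 2.73% in place of 10.1%, and Mcm2 after OGD turned to 0.0139 (adjusted p = 0.989). DESeq2 called 1 gene higher in KO after OGD. In WT, 2 genes fell over recovery without a low-count filter and with only the 6 libraries compared, in place of 1. The difference in recovery was called for 13 genes without KO-recovery replicates 1 and 3 and for 9 with the connective tissue and muscle covariate, in place of 21; the 6-library fits give no such difference. With the connective tissue and muscle covariate, 1.20% of all genes were called with the larger rise in KO, against 2.89% in the main fit. The lower count of members there thus went with fewer calls over all genes. Leaving out 1 library gave 9 to 17 lower after OGD, 9 to 21 higher and 0 to 2 lower after recovery, 1 to 2 falling in WT, and 11 to 23 for the difference in recovery. The cause was not tested, except that these fits have fewer samples.

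With the replicate block, 14 were lower after OGD (5.57% of all genes) and 11 higher after recovery (8.49%). In that fit 25 rose in WT (25.9% of all genes) and 39 in KO (28.2%). The difference in recovery was called with the larger rise in KO for 15 (2.00% of all genes). Same-numbered libraries correlated between -0.115 and 0.156 in their deviations from the group means, so the numbers were not taken to pair the samples. Counts limit the precision of the lowest genes: the lowest library had 17 counts of Cdc6, 29 of Gins3, 31 of Chek1 and 33 of Orc1.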
